A study of Mus musculus with 6 samples.

Results

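The genes described here repair DNA double-strand breaks and DNA interstrand crosslinks. They were chosen by name, as 40 listed genes of homologous recombination, break resection, the Fanconi anaemia pathway, junction processing, checkpoint signalling and end joining. Earlier results of these data were known at that choice, so shares set against all genes are descriptive. Probe sets annotated to 37 of them were found, among 18194 named genes on the array. The remaining 3, Xrcc2, Rbbp8 and Dclre1c, were not analysed here. All 37 were above the detection floor on at least 2 arrays and entered the fit across 11698 genes. The floor is the median of all signals, 74.2, and lower signals were set to it before log2 was taken.

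The study profiled messenger RNA of A20, a B lymphoma line of BALB/c mouse origin, on 6 Affymetrix Mouse Genome 430 2.0 arrays, with 1 array for each of 6 conditions. Cells had no stimulus or TGF-β for 12 h or 24 h, each with DMSO ("without drug") or with SP600125, which inhibits JNK kinases, and the drug-only cells had 24 h of SP600125. Cells given TGF-β with drug for 12 h or 24 h had the drug over that time, so the 0 h drug cells match the 24 h ones in drug exposure. They do not match the 12 h ones. In the drug arm, TGF-β time and hours of drug cannot be told apart in any comparison with 12 h. The study asked which TGF-β responses of these cells depend on JNK. All 6 conditions use this 1 cell line, no condition was repeated, and nothing says that the arrays came from separate cultures. P-values therefore reflect only how far these arrays depart from one another, which may be technical. The doses were not stated in the labels.

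Double-strand breaks are repaired mainly by homologous recombination, which copies a sister chromatid and so works in S and G2 phase, or by end joining, which works throughout the cell cycle. The Fanconi anaemia pathway unhooks crosslinks that block replication forks and hands the resulting breaks to recombination. In B cells, end joining also completes antigen receptor rearrangement and class switching. Many recombination, Fanconi and checkpoint genes are transcribed with the cell cycle.

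Array quality bears on what follows. Array medians ran from 69.3 to 80.9 at a common trimmed mean of 500.0. The array of cells given both agents for 24 h, called the 24 h combination array here, stood apart, with an 18S ribosomal RNA control signal of 5878.2 against 506.5 to 881.5 on the other 5 and an actin 3′/5′ ratio of 1.89 against 1.25 to 1.51. Of 9 B cell markers found, all were above the floor on every array, with summed signals of 61970.1 to 103253.5. Below the floor on every array were 5 of 8 T and NK cell markers (Cd3g, Cd3d, Cd4, Nkg7 and Gzmb). So were 3 of 8 myeloid (Itgam, Cd14 and S100a8), 2 of 6 fibroblast (Col1a1 and Dcn) and 2 of 3 erythroid markers (Alas2 and Klf1). Above it on every array were 0 T and NK cell, 2 myeloid, 0 fibroblast and 1 erythroid marker. The rest were above it on some arrays only. Summed signals were 177 to 416 for 8 T and NK cell markers, 747 to 1099 for 8 myeloid markers, 252 to 383 for 6 fibroblast markers and 192 to 273 for 3 erythroid markers.

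Most of the repair genes had lower signals after 24 h of TGF-β in both arms. In an additive limma model, with TGF-β state and drug as terms over all 6 arrays, 11 of 37 repair genes fell at 24 h (29.7%) and 0 rose, at a Benjamini-Hochberg adjusted p under 0.05. Over all genes tested 7.59% fell and 9.16% rose. The genes that fell were Chek1, Fancd2, Atrip, Xrcc6, Blm, Rad54l, Eme1, Brca2, Nbn, Brca1 and Xrcc5, by 1.42-fold to 1.97-fold, with adjusted p from 0.00368 to 0.0495 in limma. At an unadjusted p under 0.05, 20 were below 0 (54.1%, against 13.3% of all genes tested) and 1, Rmi1, was above (2.7%, against 18.1%). The median log2 effect was −0.42 over the 37 genes and 0.07 over all genes tested. In 32 of 37 (86.5%) the signal was lower at 24 h than at 0 h in both arms, as it was in 27.8% of all genes tested. Rmi1 and Xrcc4 alone were higher in both arms (5.41%, against 37.8% of all genes tested). In these bulk samples, fewer cells expressing a gene and less RNA per cell cannot be told apart. The count rested on particular arrays and settings. Without the 24 h combination array, 7 genes fell, 6 of them among the 11, with 6.59% of all genes tested. The calls of Atrip, Brca1, Brca2, Eme1 and Xrcc5 were lost there. With that array left out and the gene set of the 6-array fit kept, 0 of all genes tested fell or rose. Without the drug-only array Chek1, Xrcc6, Blm and Rad54l fell, with 4.84% of all genes tested, and the other 7 calls were lost. Atrip was also lost without the untreated array and without the 24 h array without drug. When a gene's probe sets were averaged 4 of the 11 fell, with 3.86% of all genes tested. These 4, Atrip, Blm, Brca2 and Nbn, had 1 probe set each to average, so their effects stayed the same. Eme1 and Xrcc5, also with 1, lost the call. Every gene of the 11 with more than 1 lost it too. Chek1 was then at −0.55, Fancd2 at −0.36, Xrcc6 at −0.42, Brca1 at −0.56 and Rad54l at −0.59. Probe sets under the floor, set to it, entered these averages. The lowest of the 6 signals stood on the 24 h combination array in 27 of 37 genes (73%, against 18% of all genes tested). The part of that array's state in the result was not tested.

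**Figure D1:**
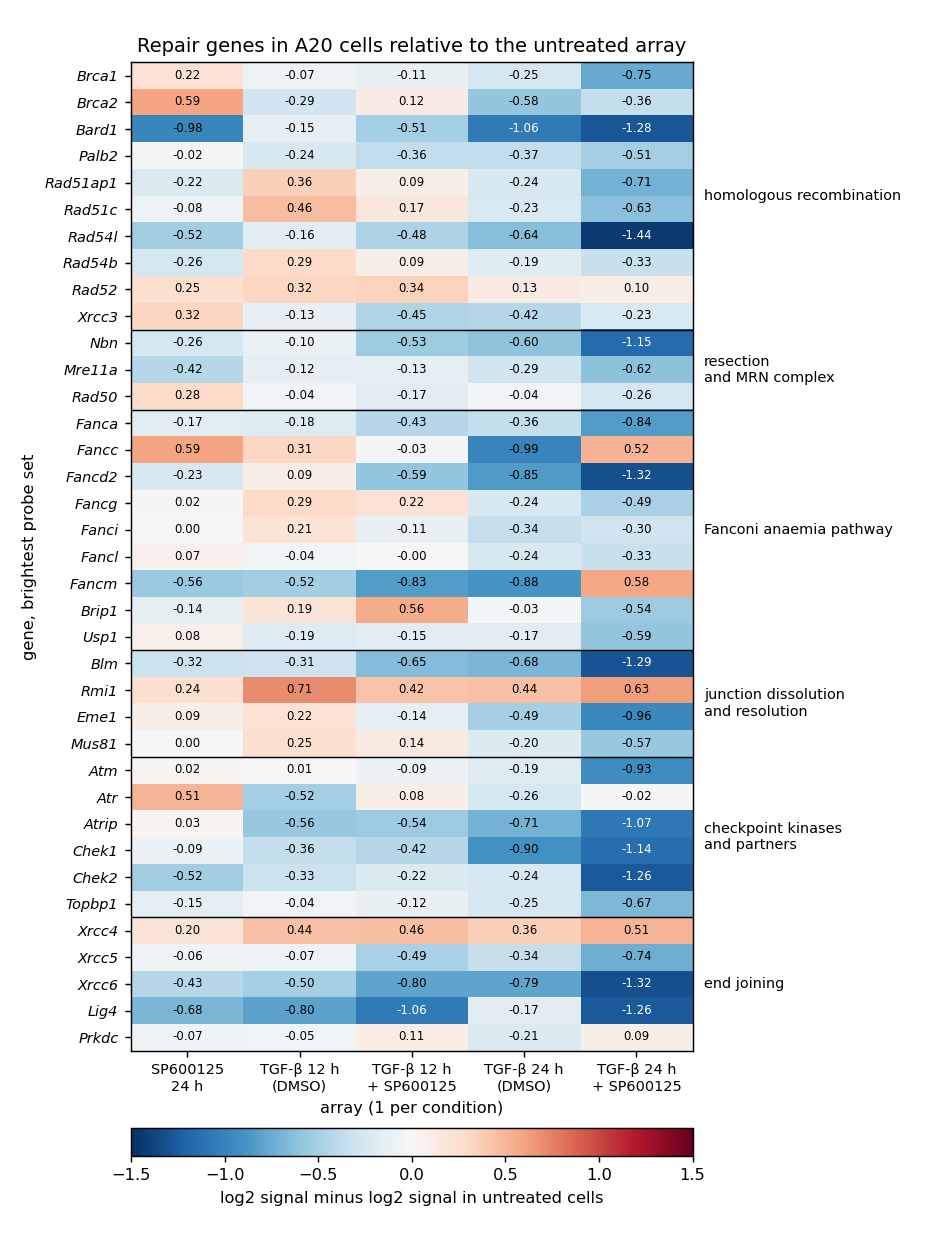
The log2 signal of 37 repair genes on 5 arrays minus that on the untreated array, 1 array per column and 1 gene per row, grouped by role (signals under 74.2 set to it; colours saturate at 1.5). The last column, the 24 h combination array, holds the lowest signal of 27 genes, and Rad52, Rmi1 and Xrcc4 are above 0 in every column.

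Chek1, of the replication checkpoint, had the largest 24 h effect of the 11 genes. In that checkpoint Atr with its partner Atrip senses single-stranded DNA, Topbp1 activates it, and Chek1 is the kinase it switches on. Chek1 had signals of 1806, 1409 and 966 without drug (TGF-β for 0, 12 and 24 h in that order) and 1702, 1348 and 822 with SP600125 in the same order. It was lower at 24 h than at 12 h in both arms, and both 24 h signals lay below the other 4. The 24 h effect on Chek1 was −0.98 ± 0.13 (SE, log2; limma adjusted p = 0.00368), and it fell in 2 of 2 pairs. Its 3 further probe sets above the floor were also lower at 24 h. Atrip had signals of 299, 202 and 183 without drug and 306, 206 and 142 with SP600125 at these times, and it fell by 0.91 ± 0.25 at 24 h. The 4 stimulated Atrip signals lay below both unstimulated ones. A probe set annotated to Atrip and to another gene, left out here, went from 1033 to 1785 without drug and from 1010.3 to 1470.2 with drug, so the fall rests on 1 probe set. Atr itself was at −0.39 ± 0.16 and Topbp1 at −0.39 ± 0.12, and neither passed. Atm, the kinase that answers to double-strand breaks, was at −0.57 ± 0.18 and did not pass. Of 6 genes in this group 2 fell, against 7.59% of all genes tested. All 6 had an effect below 0, with a median of −0.53, while 5048 of all 11698 genes tested were below 0.

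Chek2, the kinase downstream of Atm, had signals of 727, 579.9 and 616 without drug and 508, 624 and 304 with SP600125. Its lowest signal stood on the 24 h combination array, where it was 2.03-fold lower than at 24 h without drug. Its other 5 signals lay between 508 and 727 and followed no order in time, and its 24 h effect of −0.49 ± 0.27 did not pass.

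Among homologous recombination genes, 3 of 10 measured fell at 24 h, against 7.59% of all genes tested. All 10 had an effect below 0, with a median of −0.46, while 5048 of all 11698 genes tested were below 0. Rad54l, a DNA motor that remodels chromatin during strand exchange, had signals of 2131, 1906 and 1365 without drug and 1486, 1533 and 788 with SP600125. The 24 h signal was the lowest in each arm, and it was lower with drug than without at each time. Rad54l fell by 0.78 ± 0.15 at 24 h, and its 2 further probe sets above the floor were also lower. Brca2, which loads the recombinase onto single-stranded DNA, had signals of 697, 571 and 468 without drug and 1049.5, 758 and 544 with SP600125. Each arm declined with time, while the drug arm lay above the arm without drug at every time. Brca2 fell by 0.76 ± 0.18 at 24 h, on a lone probe set. Brca1, a ubiquitin ligase that favours resection and recombination, had signals of 1770.2, 1685 and 1491 without drug and 2064, 1639 and 1049.8 with SP600125. The change was small without drug, at −0.25 on the log2 scale, and larger with drug, at −0.98. Brca1 fell by 0.61 ± 0.18 in the fit (limma adjusted p = 0.0495) and was lower in 2 of 2 pairs. Its effect was −0.31 without the 24 h combination array and −0.36 without the drug-only array, and it passed in neither. Of 3 further Brca1 probe sets, 2 were lower and 1, near the floor, was higher.

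Bard1, the ubiquitin ligase partner of Brca1, had signals of 211, 190.1 and 101 without drug and 107, 148 and 86.7 with SP600125. It was 2.08-fold lower at 24 h without drug, and the drug-only signal of 107 was close to the 101 at 24 h of TGF-β without drug. Its effect of −0.68 ± 0.27 did not pass, on a lone probe set close to the floor. Palb2, which joins Brca1 to Brca2, was at −0.43 ± 0.18 and was lower in all 4 TGF-β pairs. Rad51ap1, which helps strand pairing, was at −0.37 ± 0.13, and Rad51c, a recombinase paralogue, at −0.39 ± 0.20. Xrcc3, its partner, was at −0.49 ± 0.27. Rad54b, a relative of Rad54l, and Rad52, an annealing protein, were at −0.13 ± 0.23 and −0.01 ± 0.24.

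In the MRN complex, which binds broken ends and starts their resection, 1 of 3 measured genes fell, against 7.59% of all genes tested. Nbn, its signalling subunit, had signals of 1692, 1575 and 1115 without drug and 1411, 1172 and 760 with SP600125. It declined with time in each arm, and each drug signal lay below its partner without drug. Nbn fell by 0.75 ± 0.14 at 24 h. Its partners Mre11a, the nuclease, and Rad50, the tethering subunit, were at −0.24 ± 0.13 and −0.29 ± 0.15 and did not pass.

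In the Fanconi anaemia pathway 1 of 9 genes fell, against 7.59% of all genes tested. A single call among 9 genes does not set the pathway apart from that share. Effects were below 0 in 8 of the 9, with a median of −0.37, while 5048 of all 11698 genes tested were below 0. Fancd2, which is ubiquitinated at stalled forks, had signals of 943, 1002 and 522 without drug and 801, 629 and 378 with SP600125. Without drug the signal at 12 h was close to that at 0 h and the drop came at 24 h, while with drug it was already lower at 12 h. Fancd2 fell by 0.97 ± 0.18 at 24 h. Of its 3 further probe sets above the floor on at least 2 arrays, 2 were lower at 24 h and 1, near the floor, was higher. Its clamp partner Fanci was at −0.32 ± 0.21, Fancl, the ligase for both, at −0.32 ± 0.12, and Usp1, which removes the ubiquitin, at −0.42 ± 0.13. The core subunits Fanca, Fancg and Fancc were at −0.52 ± 0.17, −0.37 ± 0.24 and −0.53 ± 0.40, and the helicase Brip1 at −0.21 ± 0.25. None of these passed.

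Fancc and Fancm, the translocase that anchors the core complex, were at least 2-fold apart in a pair, and their further probe sets did not all go the same way. Fancm had signals of 426, 298 and 232 without drug and 289, 239 and 638 with SP600125, and the 24 h combination array was 2.2-fold above the drug-only array. On that same array another Fancm probe set was at 48.7, against 139 at 24 h without drug and 179 on the drug-only array. The third was at 107, against 68.4 and 81.8, and so went the way of the brightest. Fancc had signals of 242, 300.5 and 122 without drug and 364, 236 and 347 with SP600125, and its signal at 24 h of TGF-β was 2.86-fold higher with drug than without. A further Fancc probe set was at 137 without and 111 with drug at that time, and another at 19.5 and 70.7, both under the floor.

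Among genes that process joined DNA molecules, 2 of 4 fell at 24 h, against 7.59% of all genes tested. Blm, the helicase that dissolves crossed junctions, had signals of 1581, 1275 and 985 without drug and 1262, 1008 and 644 with SP600125. It declined at each step in each arm and was lower with drug at each time. Blm fell by 0.83 ± 0.15 at 24 h (limma adjusted p = 0.00959), in 2 of 2 pairs. Rmi1, its partner in that complex, went the other way, with signals of 701, 1144 and 953 without drug and 828, 940.1 and 1087 with SP600125. Every stimulated signal lay above both unstimulated ones, but the effect of 0.42 ± 0.18 at 24 h did not pass. All 4 further Rmi1 probe sets above the floor were higher at 12 h and at 24 h. Eme1, which with Mus81 forms a junction nuclease, had signals of 832, 966 and 591 without drug and 884, 753 and 427 with SP600125. Its 24 h signals were below its other 4, and it fell by 0.77 ± 0.19. Mus81 was at −0.39 ± 0.23.

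Of 5 end joining genes 2 fell, against 7.59% of all genes tested. Xrcc5 and Xrcc6 encode the Ku heterodimer that caps broken ends, and both fell at 24 h. Xrcc6 had signals of 2679.5, 1891 and 1547 without drug and 1989.9, 1544 and 1076 with SP600125. It was lower at each later time in each arm and lower with drug at each time. Xrcc6 fell by 0.84 ± 0.12 (limma adjusted p = 0.00499), in 2 of 2 pairs. Xrcc5 had signals of 2736, 2605 and 2160.3 without drug and 2632, 1946 and 1641 with SP600125, and it fell by 0.51 ± 0.13. Without the drug-only array its effect was −0.33 and did not pass. The ligation factor Xrcc4 was at 0.34 ± 0.19, higher than untreated on every other array, and its further probe set was at −0.02 at 24 h. Prkdc, the kinase that Ku recruits, was at −0.03 ± 0.19. Lig4, the ligase that Xrcc4 holds, had signals of 335, 193 and 299 without drug and 209, 161 and 139.8 with SP600125. At 24 h of TGF-β it was 2.14-fold lower with drug than without. Its signals declined with time with drug but followed no order in time without it. Its 24 h effect of −0.37 ± 0.28 did not pass.

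**Figure D2:**
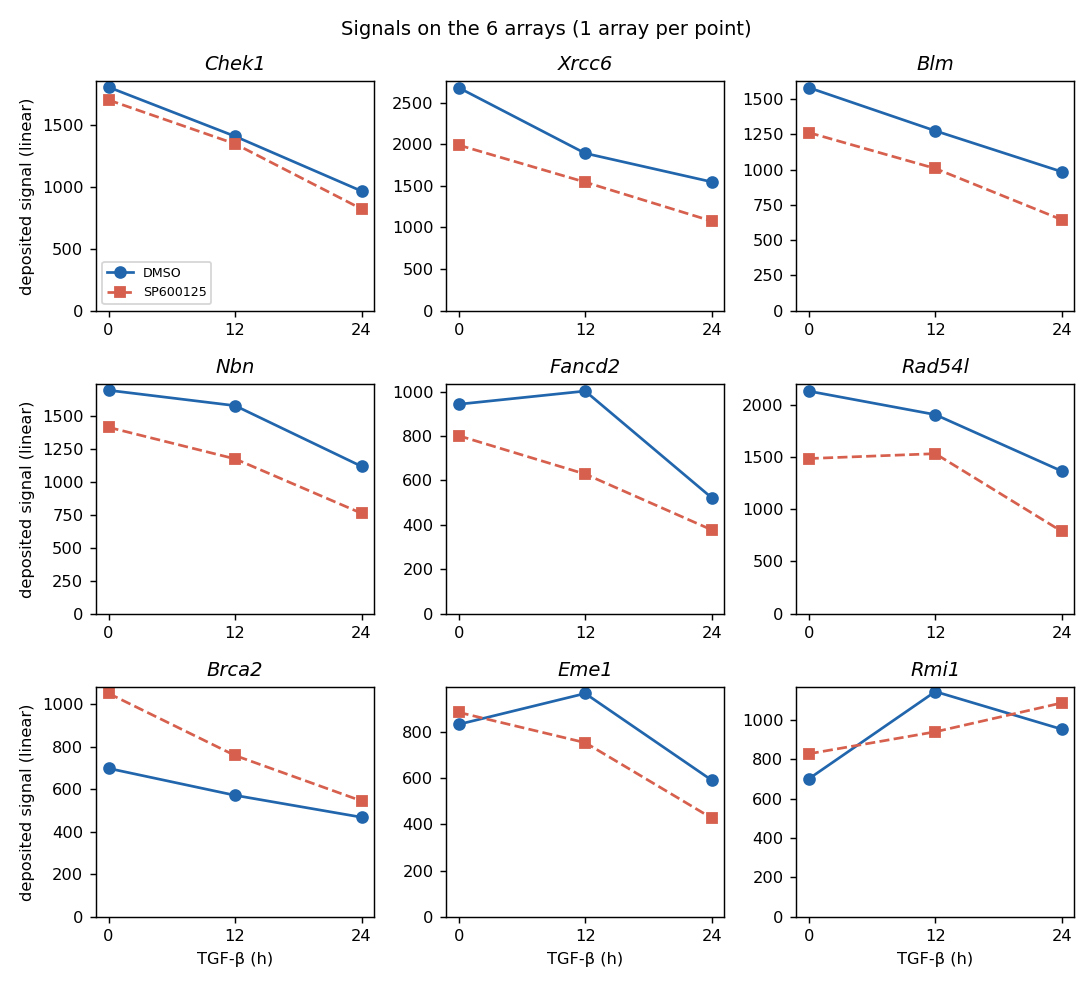
Deposited linear signals of the 8 repair genes with the lowest adjusted p at 24 h, and of Rmi1, against hours of TGF-β, without drug (solid, circles) and with SP600125 (dashed, squares), 1 array per point. In each of the first 8 panels the 24 h point is the lowest of its arm, while Rmi1 ends above its 0 h point in both arms.

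The promoter windows of 4 of the genes that fell are shown, those with the lowest adjusted p that held a searched motif. Windows run from 250 bases before to 50 after the transcription start, from RefSeq on GRCm38.p6, 5′ to 3′ on the gene's strand. Motifs known from promoters of cell cycle genes were searched. Capitals mark matches on either strand to an E2F motif (TTTGGCGC, TTTCCCGC, TTTCGCGC or TTTGCCGC), the CHR element TTTGAA or the CCAAT box. No matches overlap in these 4 windows, and of several Rad54l windows the first listed is shown.
Xrcc6, chr15:82016119-82016418, plus strand: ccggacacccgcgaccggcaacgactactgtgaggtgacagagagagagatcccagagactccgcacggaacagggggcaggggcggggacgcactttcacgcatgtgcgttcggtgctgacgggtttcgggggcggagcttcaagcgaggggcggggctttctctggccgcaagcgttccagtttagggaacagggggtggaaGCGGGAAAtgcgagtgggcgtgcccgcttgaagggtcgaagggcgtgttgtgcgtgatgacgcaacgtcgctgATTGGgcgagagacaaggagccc
Blm, chr7:80534949-80535248, minus strand: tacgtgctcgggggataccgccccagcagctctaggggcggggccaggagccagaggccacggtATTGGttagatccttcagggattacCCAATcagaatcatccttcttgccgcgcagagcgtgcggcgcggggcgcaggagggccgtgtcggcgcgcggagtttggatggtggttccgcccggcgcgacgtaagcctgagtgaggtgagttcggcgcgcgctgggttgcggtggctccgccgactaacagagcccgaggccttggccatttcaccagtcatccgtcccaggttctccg
Rad54l, chr4:116123641-116123940, minus strand: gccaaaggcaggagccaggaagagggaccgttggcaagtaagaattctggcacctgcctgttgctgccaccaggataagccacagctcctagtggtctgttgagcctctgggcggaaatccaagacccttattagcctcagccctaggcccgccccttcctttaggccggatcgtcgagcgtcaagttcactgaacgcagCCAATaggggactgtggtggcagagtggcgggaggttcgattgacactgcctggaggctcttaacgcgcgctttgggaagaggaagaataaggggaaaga
Brca2, chr5:150522371-150522670, plus strand: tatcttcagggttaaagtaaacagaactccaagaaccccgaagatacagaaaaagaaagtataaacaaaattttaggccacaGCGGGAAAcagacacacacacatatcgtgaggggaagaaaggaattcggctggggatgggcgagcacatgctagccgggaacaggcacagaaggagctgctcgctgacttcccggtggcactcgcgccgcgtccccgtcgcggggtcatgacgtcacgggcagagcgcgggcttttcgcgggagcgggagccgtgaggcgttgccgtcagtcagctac

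The Xrcc6 window holds an E2F match and a CCAAT box, the Brca2 window an E2F match, the Rad54l window a CCAAT box and the Blm window 2 of them. Windows were found for 31 of the 37 genes, and not for Rad54b, Nbn, Rad50, Fancd2, Usp1 and Prkdc. An E2F match stood in 8 of these 31 genes (25.8%), against 4.76% of 9517 tested genes with a window and 2.6% of all 27025 genes with one. It stood in 2 of 9 genes that fell (22.2%) and in 6 of 22 that were not called (27.3%). A CCAAT box stood in 17 of 31 genes (54.8%), against 42.8% of tested genes and 41.1% of all genes. TTTGAA stood in 2 of 31 (6.45%), against 14.4% of tested genes and 20.2% of all genes. A match is a description of letters and not of binding.

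**Figure D3:**
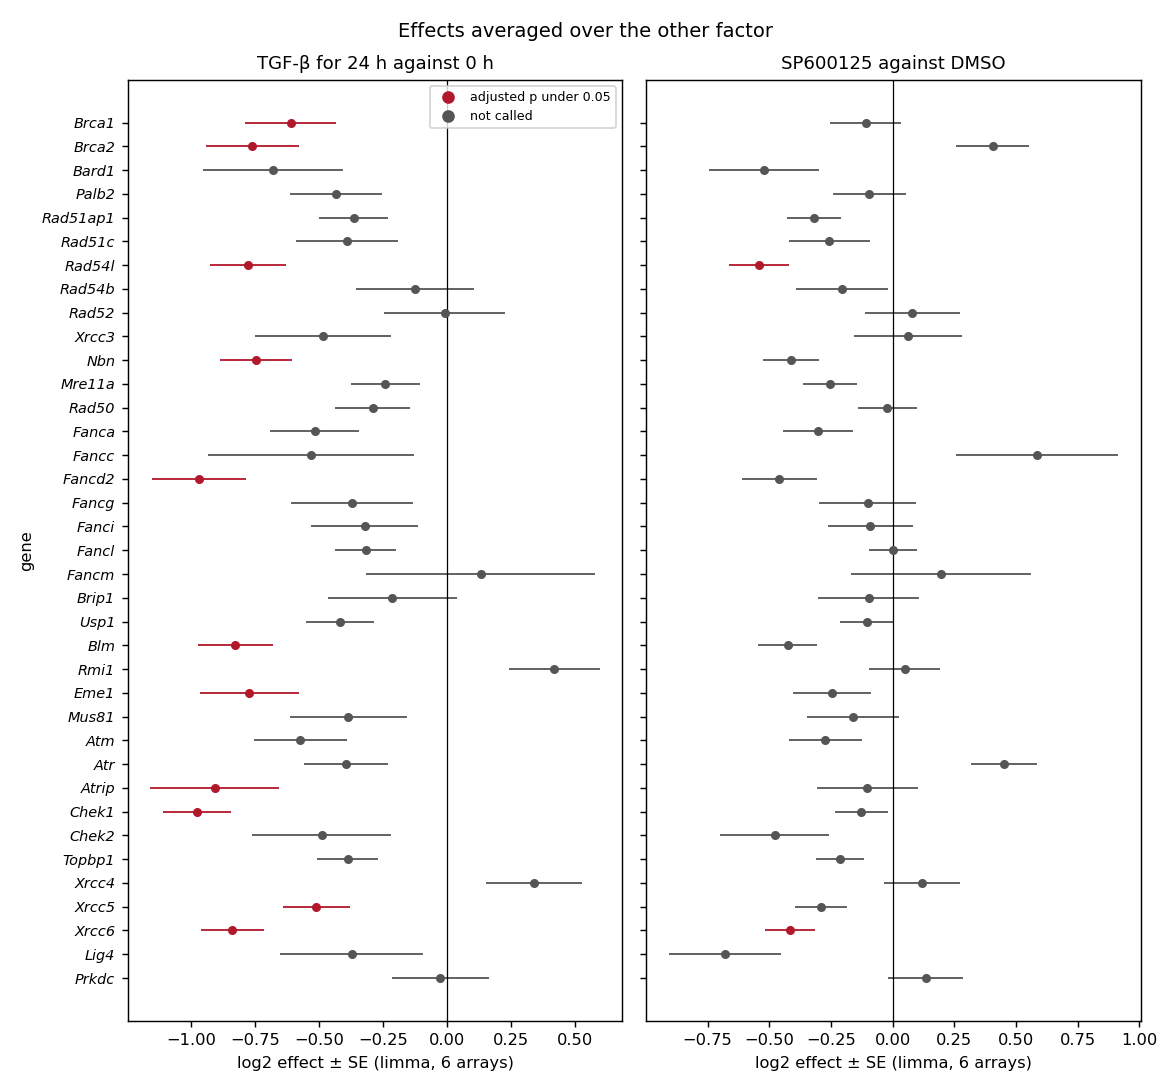
Log2 effects with standard errors from the additive limma model for 37 repair genes, for 24 h of TGF-β (left) and for SP600125 (right), with genes at an adjusted p under 0.05 in red. On the left 11 genes are red, all below 0, and on the right Rad54l and Xrcc6 are red.

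At 12 h of TGF-β no repair gene passed. In the additive limma model 0 of 37 rose and 0 fell, against 2.74% and 2.5% of all genes tested. At an unadjusted p under 0.05, Rad51ap1 and Rmi1 were above 0 and Atr, Chek1 and Xrcc6 below it (5.41% and 8.11%, against 11.9% and 9.95% of all genes tested). The median effect was −0.06, against 0.02 over all genes tested. In the drug arm the 12 h and 0 h cells also differ in hours of drug, which enters this effect. In 17 genes (45.9%) the signal was lower than at 0 h in both arms, against 28% of all genes tested, and in 9 (24.3%) it was higher in both arms, against 33.2%. Those 9 were Rad51ap1, Rad51c, Rad54b, Rad52, Fancg, Brip1, Mus81, Rmi1 and Xrcc4. With either 24 h array left out, 1 gene, Xrcc6, fell at 12 h. Of all genes tested 6.18% fell without the 24 h array without drug, and 6.05% without the 24 h combination array.

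The first 7 of those 9 genes were lower at 24 h than at 12 h in both arms. Rad51ap1 had signals of 1455, 1864 and 1232 without drug and 1251, 1552 and 890 with SP600125, so it peaked at 12 h in each arm and ended below its start. Of its 3 further probe sets, at 12 h 2 had the same sign as the brightest and 1 was at −0.01. Rad51c had signals of 511, 702 and 435 without drug and 483, 573 and 330.4 with SP600125, with the same course. Its further probe set had 469, 485 and 320.3 without drug and 483, 247 and 140.0 with SP600125, with no such peak in the drug arm. Brip1 had signals of 438, 501 and 429 without drug and 397, 644 and 301 with SP600125, with the drug arm highest at 12 h and lowest at 24 h. Over the 37 genes, 28 (75.7%) were lower at 24 h than at 12 h in both arms, against 24.2% of all genes tested, and 0 were higher in both arms, against 33.8%. In the drug arm these times also differ in hours of drug, which enters the limma contrast too. In the limma contrast of 24 h with 12 h, 0 of 37 fell and 0 rose at an adjusted p under 0.05, against 0.0256% and 0.0684% of all genes tested. At an unadjusted p under 0.05, 17 were below 0 (45.9%, against 6.98% of all genes tested) and 0 above (against 8.38%). Rad51ap1, at −0.70 ± 0.13 and lower in 2 of 2 pairs, had the lowest adjusted p in limma, 0.0775. The median was −0.38, against 0.04. Calls became more frequent over all genes when some arrays were left out. Without the untreated array 5 repair genes fell between the times, with 1.62% of all genes tested, and without the drug-only array 4, with 1.47%. Without the 24 h array without drug 5 fell and 1 rose, with 2.05% and 1.07% of all genes tested. The untreated and drug-only arrays do not enter the estimate of this contrast and change only its error and the genes tested.

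Few repair genes passed for SP600125. In the additive limma model 2 of 37 fell (5.41%) and 0 rose, against 3.76% and 4.15% of all genes tested. At an unadjusted p under 0.05, 9 were below 0 (24.3%, against 10.6%) and 2 above (5.41%, against 13.5%). Rad54l fell by 0.54 ± 0.12 (limma adjusted p = 0.0343) and Xrcc6 by 0.42 ± 0.10 (limma adjusted p = 0.0446), each in 3 of 3 pairs. In 16 genes (43.2%) the signal was lower with drug in all 3 pairs, against 18.4% of all genes tested. The pairs differed in size, with medians of −0.06 in unstimulated cells, −0.13 after 12 h and −0.36 after 24 h of TGF-β. Over all genes tested these medians were 0.02, 0.01 and 0.04. The last pair rests on the array with the 18S signal of 5878.2. The drug was given for 24 h, 12 h and 24 h in these pairs, so their order is not one of drug time, and the drug effect pools both exposures. Without the untreated, the drug-only or either 24 h array 0 repair genes fell, and with either 12 h array left out Rad54l alone did, while 2.65% to 3.55% of all genes tested fell. Without the 24 h array without drug 1 repair gene rose, with 4.62% of all genes tested. With probe sets averaged 0 fell, with 0.607% of all genes tested.

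Brca2, Atr and Xrcc4 were higher with drug in all 3 pairs (8.11%, against 24.5% of all genes tested). Atr had signals of 868, 607 and 725 without drug and 1238, 919.9 and 857 with SP600125, each higher with drug than without at the same time. Its drug effect of 0.45 ± 0.13 did not pass, and its 2 further probe sets above the floor were at 0.16 and 0.01. The Brca2 effect was 0.41 ± 0.15, and it did not pass either. Their partners Atrip and Palb2 were at −0.10 ± 0.20 and −0.09 ± 0.15. Bard1 was at −0.52 ± 0.22 and Lig4 at −0.68 ± 0.23, lower in 3 of 3 pairs each, and neither passed.

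At 2-fold, the size the study set for induction by TGF-β, 0 to 4 repair genes were higher, and 0 to 4 lower, in each pair. Shares of all genes were also small, and each count is given beside them. At 12 h of TGF-β 0 were 2-fold apart in either arm, against 2.91% higher and 1.31% lower of all genes above the floor without drug, and 2.24% and 1.17% with drug. At 24 h without drug 0 were higher and 1, Bard1, was lower (2.7%), against 4.89% and 1.72%. With drug at 24 h 1 was higher, Fancm (2.7%, against 4.16%), and 4 were lower, Fancd2, Eme1, Atrip and Chek1 (10.8%, against 1.8%). With SP600125 0 were higher or lower at 0 h, against 2.8% and 1.15%, and 0 at 12 h, against 1.62% and 1%. At 24 h Fancc and Fancm were higher with drug (5.41%, against 2.89%) and Chek2 and Lig4 lower (5.41%, against 1.77%). At 1.5-fold, 10 were lower at 24 h without drug (27%, against 8.33%) and 15 with drug (40.5%, against 8.3%). At 12 h without drug Rmi1 was 1.5-fold higher and Lig4 lower (2.7% each, against 10.1% and 7.12%). At 12 h with drug Brip1 was higher (2.7%, against 8.46%) and Xrcc3 and Fancc lower (5.41%, against 6.59%). In unstimulated cells SP600125 went with 1.5-fold higher Brca2 and Fancc (5.41%, against 9.99%) and lower Bard1 and Lig4 (5.41%, against 5.59%). After 12 h Atr was higher and Fancd2 lower with drug (2.7% each, against 7.06% and 4.75%). After 24 h Rad54l, Blm, Atm, Chek2 and Lig4 were lower with drug (13.5%, against 7.26%).

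Whether the TGF-β response of these genes changed with the drug was tested as an interaction, with 12 h and 24 h taken as repeats of 1 TGF-β state. In limma 0 of 37 passed in either direction, as did 0% of all genes tested. At an unadjusted p under 0.05, 0 repair genes were above or below 0, against 1.22% and 1.46% of all genes tested. The estimates ran from −0.50 to 1.13 with standard errors of 0.21 to 0.88, which does not show that the responses were alike. The median response at 24 h was −0.26 without drug and −0.55 with drug. The latter rests on the array with the 18S signal of 5878.2, and the part of that array's state in it was not tested. Both 24 h pairs rest on their own 0 h array.

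**Figure D4:**
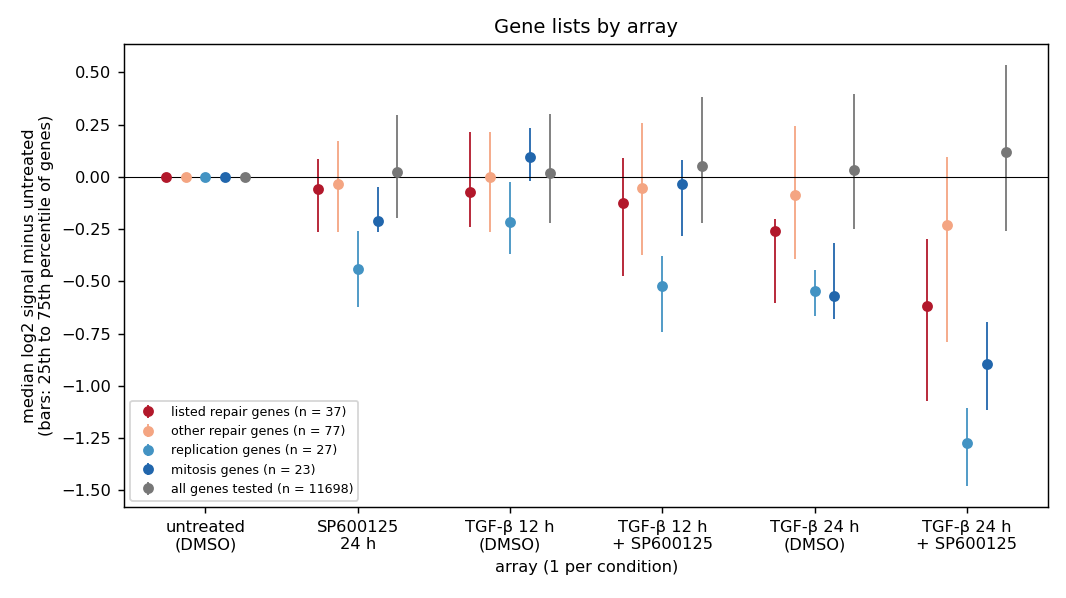
Median log2 signal minus that of the untreated array for the listed repair genes, other repair genes, replication genes, mitosis genes and all genes tested, on each of 6 arrays, with bars from the 25th to the 75th percentile of genes. At 24 h the listed repair genes lie at −0.26 without drug and −0.62 with drug, between all genes tested and the replication and mitosis genes.

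Most of the listed cell cycle genes also fell at 24 h, where 7.59% of all genes tested fell and 9.16% rose. Of 27 replication genes 22 fell and 0 rose at 24 h in limma, with a median of −0.67, and of 23 mitosis genes 18 fell and 1 rose, with a median of −0.67. At 12 h 0 replication genes passed, with a median of −0.09, and 2 mitosis genes rose, with a median of 0.09. Over all genes tested 2.74% rose and 2.5% fell at 12 h. With SP600125 14 of 27 replication genes and 3 of 23 mitosis genes fell, against 3.76% of all genes tested. Their medians were −0.49 and −0.24, against −0.13 for the repair genes. On the single arrays relative to untreated cells, replication genes had medians of −0.55 at 24 h without drug and −1.27 with it. The repair genes had −0.26 and −0.62 there. The part of the cell cycle in the fall of the repair genes was not tested.

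Of 81 other listed repair genes 77 were tested. At 24 h 17 of 77 fell and 4 rose, while 7.59% of all genes tested fell and 9.16% rose. The median was −0.20, against −0.42 for the 37 genes and 0.07 over all genes tested. Exo1, a resection nuclease, fell by 0.89 ± 0.14, with signals of 2151, 1336 and 1223 without drug and 1562, 1139 and 799 with SP600125. Helq, a repair helicase, fell by 1.09 ± 0.20, Rad51b, a recombinase paralogue, by 1.26 ± 0.25, Fancb, a core complex subunit, by 0.92 ± 0.21, and Cdc25a, the phosphatase that Chek1 opposes, by 0.84 ± 0.13. Polm, an end joining polymerase, rose by 1.15 ± 0.26, with signals of 111, 162 and 264 without drug and 135, 264 and 281 with SP600125. At 12 h 1 of 77 rose and 2 fell, against 2.74% and 2.5% of all genes tested. Rad17, the checkpoint clamp loader, rose by 0.62 ± 0.11, while Helq and Cdc25a fell by 1.08 ± 0.20 and 0.61 ± 0.13. With SP600125 0 rose and 7 of 77 fell, with a median of −0.09, while 4.15% of all genes tested rose and 3.76% fell. Wee1, a kinase that restrains entry into mitosis, fell by 0.91 ± 0.13, Dna2, a resection nuclease, by 0.65 ± 0.10, and Fancb by 0.82 ± 0.17. Tipin and Clspn, which link forks to Chek1 activation, fell by 0.58 ± 0.12 and 0.51 ± 0.11, and Rpa1, which coats single-stranded DNA, by 0.47 ± 0.09.

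Probe sets of a gene mostly moved in the same direction at 24 h, though not by the same size. Of the 11 genes that fell, 4 had further probe sets above the floor on at least 2 arrays, 11 in all, and 9 of these were also lower. The other 7 rest on 1 usable probe set. Over all 37 genes, 35 further probe sets were above the floor on at least 2 arrays. Of these 29 had the sign of the brightest probe set at 24 h, 27 at 12 h and 26 for SP600125.

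**Figure D5:**
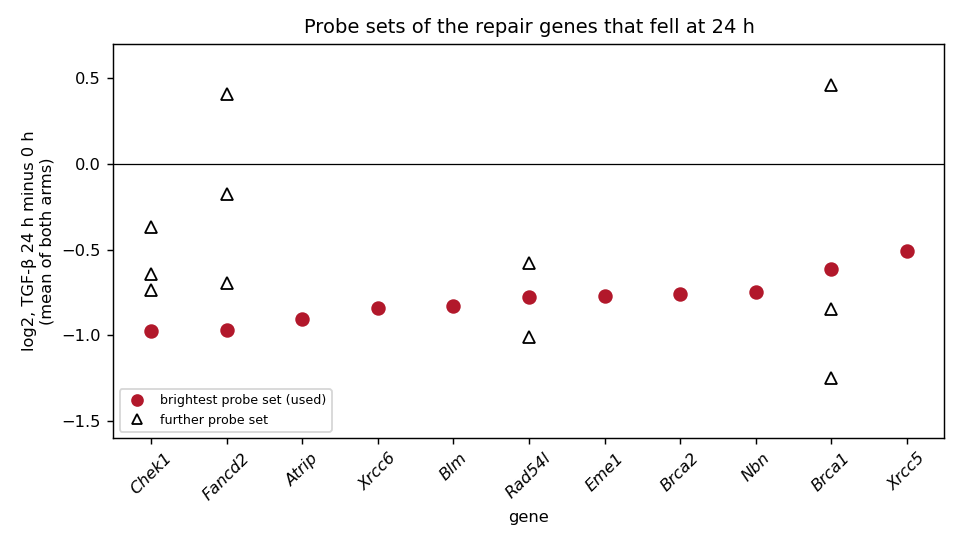
Log2 difference between 24 h and 0 h of TGF-β, averaged over both arms, for each probe set above the floor on at least 2 arrays of the 11 genes that fell, with the brightest probe set filled and further ones as open triangles. Further probe sets of Brca1 and Fancd2 above 0 are the exceptions, and the other 9 lie below 0.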

How the data were processed

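The deposited values were 1 linear intensity (signal) per probe set and array, made by the authors with GCOS 1.2, per the submitters' processing notes. The labels do not state its settings. Medians differed by up to 1.17 times, less than the 1.2 at which signals would have been rescaled, and none were. Of 45101 probe sets, 34958 had 1 gene symbol, 932 had several and 9211 had none in the platform annotation. Each gene took the values of its probe set with the highest mean log2 signal. Signals under 74.2 were set to that floor, and log2 was taken. A fold change understates that of dim genes.

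limma 3.58.1 in R 4.3.3 was fitted to the 11698 genes that passed the floor on 2 arrays or more, with TGF-β state and drug as terms, 2 residual degrees of freedom and an intensity-trended prior worth 6.09. The error in that model is departure from additivity. The interaction model had a prior of 2.84. P-values were adjusted over all genes tested by Benjamini-Hochberg. On simulated data for the 24 h effect with 11698 genes, 86% of changes of 1 log2 unit and 100% of changes of 2 were recovered, with 13 false calls. The simulation had independent noise and no drug effect. Repair genes that fell had effects of −0.98 to −0.51, and recovery at such smaller sizes was not simulated. Genes called in the additive fit, or at least 2-fold apart in a pair, are given on all 6 arrays. Of the other repair genes, up to 6 called per comparison are named, those of the largest effect. Alternatives were other scalings, floors, probe set rules, gene filters, no trend, and each array left out. The members and lists were chosen with earlier results of these data known. The number of arrays limits the precision. No value column was left out.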

Additional observations from a re-analysis of the deposited data

Results flagged for a closer look

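Prkdc had log2 changes of opposite sign in the arms, at both times. Without drug the log2 change was −0.0462 after 12 h and −0.2145 after 24 h of TGF-β, and with SP600125 it was 0.1787 and 0.1596. In the limma interaction model the difference was 0.30 ± 0.31, and it did not pass.

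The 18S ribosomal RNA control, which no comparison above uses, had a signal of 5878.2 on the 24 h combination array, against 506.5 in untreated cells.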

How the results depend on the processing

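For repair genes fallen at 24 h, 11 in the fit as reported, median scaling gave 17 (11.4% of all genes tested fell, against 7.59%), the mean of all probe sets 4 (3.86%), no intensity trend 3 (1.56%) and a test of all 18194 genes 0, where 1 of all genes fell. Leaving out 1 array gave 0 to 13 fallen and 0 to 1 risen, where 0 came from the gene set of the 6-array fit without the 24 h combination array, an alternative chosen after seeing the data in which 0 of all genes passed. Median scaling moved the median of all genes at 24 h by −0.11 and the calls over all genes from 1072 risen and 888 fallen to 680 and 1327. For SP600125, 2 fallen and 0 risen became 4 fallen with median scaling (5.8% of all genes tested), 4 fallen and 1 risen with log2(signal + 16) (4.86% and 5.96%), and 0 fallen with the mean of all probe sets (0.607%), a test of all genes (0%) or no trend (0.188%). Leaving out 1 array gave 0 to 1 fallen and 0 to 1 risen, the rise where 4.62% of all genes tested rose. For 24 h against 12 h, log2(signal + 16) gave 5 fallen (1.36%), and leaving out 1 array 0 to 5 fallen and 0 to 1 risen. At 12 h leaving out 1 array gave 0 to 1 fallen, the fall where 6.18% or 6.05% of all genes tested fell.

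In single pairs, the 1.5-fold rule gave 1 higher and 1 lower at 12 h without drug, 1 higher and 2 lower at 12 h with drug, 10 and 15 lower at 24 h without and with drug, and for SP600125 2 higher and 2 lower at 0 h, 1 and 1 at 12 h, and 5 lower at 24 h. Median scaling gave 2 lower at 24 h without drug, 0 higher and 11 lower at 24 h with drug, and 1 lower for SP600125 at 0 h. Quantile normalization gave 2 lower at 24 h without drug and 1 lower for SP600125 at 0 h. Shares of all genes in single pairs were not computed under either scaling. These counts therefore cannot be read as results about the repair genes. Of 182 effects of called genes under these alternatives, 112 kept the call, 70 lost it and 0 turned direction. In several alternatives a turn of direction was not possible. The lower floor, the test of all genes and no trend left the estimates of called genes as they were. So did leaving out a 12 h array, for the 24 h effects. The genes had also been chosen as called, so the 0 that turned does not measure robustness. The cause of the lost calls and moved counts was not tested. The interaction could not be fitted without an unstimulated array. No paired analysis was possible because the labels carry no replicate numbers to use as a block. Arrays were matched only by condition, through the terms for TGF-β state and drug.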
